A study of Mus musculus with 6 samples.

Results

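The genes described here are 10 members of the mouse circadian clock: the period genes Per1, Per2 and Per3, the cryptochrome genes Cry1 and Cry2, Clock, the REV-ERB receptor genes Nr1d1 and Nr1d2, Dbp and Bhlhe40. They were chosen by name, as every probe whose platform symbol or synonym is 1 of these genes, which gave 10 of 19057 genes with a probe of 1 symbol and 19 of 45281 probes. Their RNA was measured with Illumina bead arrays in MC38 cells, a C57Bl/6 mouse line labelled colon carcinoma, with 2 arrays in each of 3 groups. Control cells grew in normal medium and received no treatment. Unstimulated cells were deprived of serum for 16 h and received no S100A8/A9. Stimulated cells were deprived of serum for 16 h and then exposed to S100A8/A9 at 10 µg/mL for 6 h. S100A8/A9 is a calcium-binding protein pair that myeloid cells secrete. All groups came from this line alone, as bulk RNA, in which fewer cells of a type and less RNA per cell cannot be told apart. Each group was sampled at 1 time, so a change in the phase of a cycling mRNA and a change in its mean level cannot be told apart. The labels leave it unclear whether unstimulated cells were kept for the further 6 h, and they give no origin for the replicates. All p-values therefore rest on the spread between these 6 arrays, which may be technical.

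The circadian clock is a transcriptional feedback loop that most mammalian cells carry. CLOCK and its partner BMAL1, whose gene is named Arntl on this platform, bind E-box sequences and switch on the Per, Cry, Nr1d, Dbp and Bhlhe40 genes, and the PER and CRY proteins return to the nucleus and inhibit CLOCK and BMAL1. The REV-ERB receptors repress Arntl through ROR elements, DBP and its relative TEF activate genes through D-boxes, and BHLHE40 competes for E-boxes. In cultured cells, serum is among the signals known to set this clock.

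Promoter windows of 250 bases before to 50 bases after a RefSeq start site (build GRCm38.p6) were at hand for 8 of the 10 members, all but Per2 and Bhlhe40. Both strands were searched for the E-box CACGTG, the D-box TTATGTAA, the ROR element core AGGTCA and the cAMP response element TGACGTCA. These 8 members had 11 windows, since Clock and Per1 each had more than 1. The E-box stood in 2 of the 11 windows, of Per1 and Cry1, against 7.15% of all 32851 windows searched. The D-box stood in 1 of the 11, of Per3, against 0.938% of all windows. The ROR element core stood in 3 of the 11, of Per1, Clock and Nr1d2, against 16.3%. The cAMP response element stood in 0 of the 11 and in 1.79% of all windows. The further windows of Clock and Per1 held no match to any of these motifs. No match in a member overlapped a match of another motif. The 250 bases upstream of the start are printed for Per1 and Per3, members called in at least 1 comparison whose windows hold such letters. For Per1 the window was chosen for holding the E-box. Its other window, at chr11:69099902-69100201, held none of these motifs and is not printed. Ciart, a repressor of CLOCK and BMAL1 outside the 10, is shown beside them for its 3 E-boxes. The windows lie at chr11:69098699-69098948 on the plus strand for Per1, at chr4:151044666-151044915 on the minus strand for Per3 and at chr3:95882229-95882478 on the minus strand for Ciart, and capitals mark E-boxes and D-boxes.
Per1: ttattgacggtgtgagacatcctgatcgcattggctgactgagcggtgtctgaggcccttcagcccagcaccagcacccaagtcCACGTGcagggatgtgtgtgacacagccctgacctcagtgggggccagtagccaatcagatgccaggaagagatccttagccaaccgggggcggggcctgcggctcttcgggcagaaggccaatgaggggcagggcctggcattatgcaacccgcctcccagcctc
Per3: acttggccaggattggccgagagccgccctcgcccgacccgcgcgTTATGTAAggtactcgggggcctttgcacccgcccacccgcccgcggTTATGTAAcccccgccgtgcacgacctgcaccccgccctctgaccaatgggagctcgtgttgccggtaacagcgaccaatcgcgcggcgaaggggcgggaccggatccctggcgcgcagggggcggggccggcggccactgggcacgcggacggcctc
Ciart: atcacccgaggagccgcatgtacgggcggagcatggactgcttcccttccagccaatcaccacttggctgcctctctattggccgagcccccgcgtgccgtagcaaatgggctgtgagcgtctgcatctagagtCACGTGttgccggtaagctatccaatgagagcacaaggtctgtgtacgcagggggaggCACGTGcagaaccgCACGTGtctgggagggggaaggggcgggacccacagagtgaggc
The Per1 E-box began 166 bases upstream of the start. The Per3 D-boxes began 205 and 158 bases upstream, and the Ciart E-boxes 116, 58 and 44 bases upstream. A match describes these letters alone, and binding was not measured.

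Between 14877 and 16176 probes were detected per array (detection p-value below 0.01, taken to be against the negative control beads of the same array). The correlation across genes was 0.991 to 0.992 between replicates, 0.989 to 0.990 between unstimulated and stimulated arrays and 0.961 to 0.963 between control and starved (unstimulated and stimulated) arrays. The array codes share 1 number and end in the letters A to F, with each group under neighbouring letters. The codes do not state that these letters are places on 1 chip. If they are, place and group cannot be told apart. The 15 epithelial markers looked up, among them Epcam, Cdh1, Krt8, Krt18 and Cdx2, were each detected on at most 1 array by any probe, so the epithelial part of the cell label was not borne out at this detection level. Of 10 fibroblast or mesenchymal markers, 7 were tested. In unstimulated against control cells 5 were called higher and 1 lower (adjusted p below 0.05), beside 30.8% of all tested genes. In stimulated against control cells 5 were called higher and 1 lower, beside 29.1% of all tested genes. Between stimulated and unstimulated cells 0 were called, beside 0.0786%. The markers called higher include Col1a1, which was detected on 0 control arrays. It entered the test only through starved arrays, where it is high, so its calls support nothing. The summed signal of all 10 markers was 14557 and 22456 on the control arrays, 25377 and 29731 on the unstimulated arrays and 25042 to 25092 on the stimulated arrays. Most of it was Vim (11149.5 and 18402.1 on the control arrays). Vim was not called between unstimulated and control cells (0.43, limma adjusted p = 0.243). Lum and Thy1 were detected on 0 arrays. Leukocyte and endothelial markers were detected on at most 1 array each. The part of the mesenchymal markers in the clock gene results was not tested.

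Of the 19 probes of the clock genes, 13 were detected on at least 2 arrays, which was the filter for testing, and they covered 9 of the 10 genes. Clock, Per1, Per2, Cry2, Nr1d1, Nr1d2, Dbp and Bhlhe40 were detected on all 6 arrays. Per3 passed through its unstimulated arrays alone, and Cry1 was not tested. For a gene with several detected probes, the one with the highest mean over all arrays stands for it. Signals are given below as deposited, before normalization, in the order replicate 1, replicate 2, while log2 differences come from background-corrected, quantile-normalized intensities and a limma fit over all 8909 tested genes. A gene is called at a Benjamini-Hochberg adjusted p below 0.05 over those genes. The number after ± is limma's moderated standard error of the difference unless it is marked SD. That error uses the spread within all 3 groups of 2 arrays, drawn toward a value shared by all genes or probes in the fit.

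**Figure D1:**
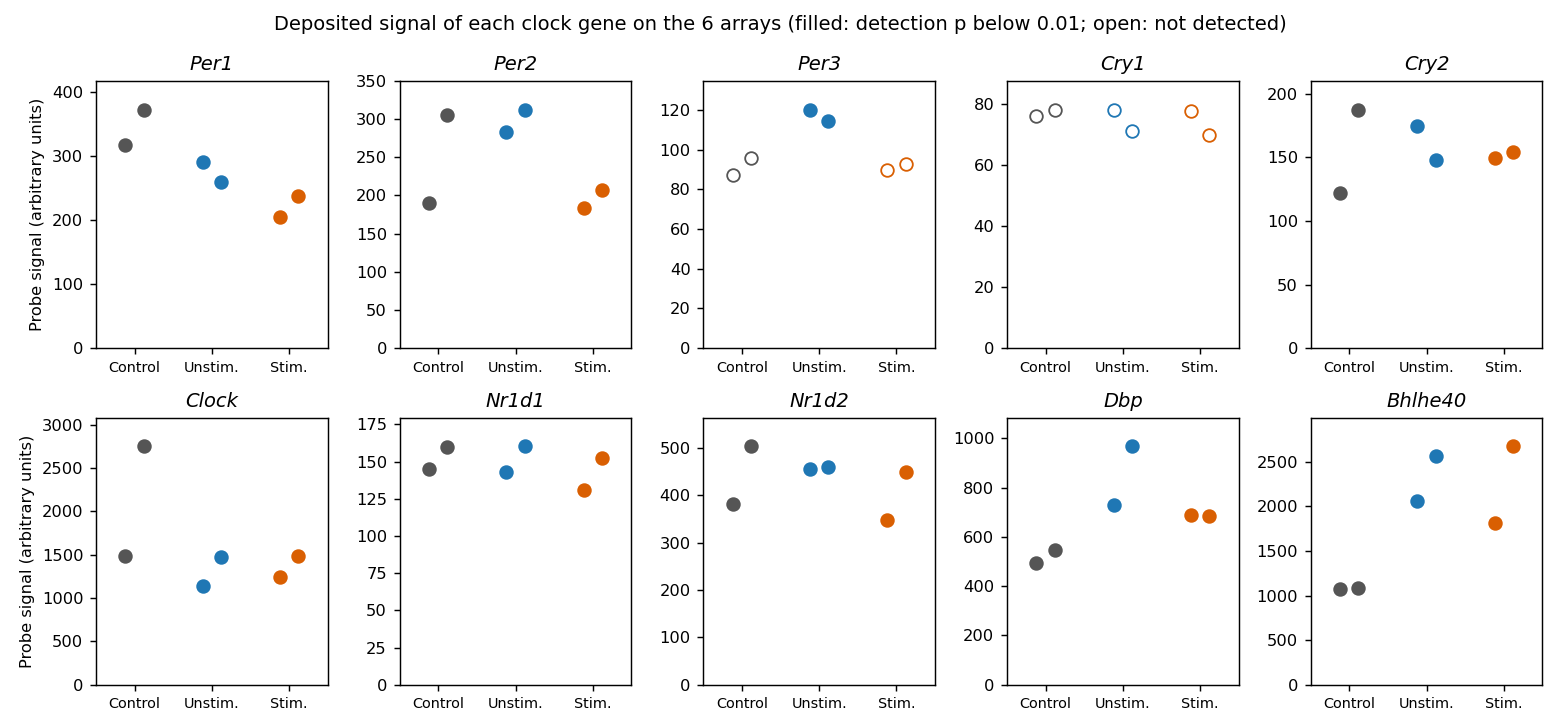
Deposited probe signal (vertical axes, arbitrary units, each starting at 0) of the 10 clock genes on each of the 6 arrays, 2 per group, with filled points where the probe was detected and open points where it was not. Bhlhe40 and Dbp lie higher on the 4 starved arrays than on the control arrays, Per1 lies highest on the control arrays, Per3 was detected on the 2 unstimulated arrays only, and Cry1 on none.

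The first comparison, unstimulated against control cells, set cells deprived of serum for 16 h beside cells in normal medium. Bhlhe40 and Dbp rose and Per1 fell. Per3 was called higher as well, but it entered the test only through the unstimulated arrays, the group where it is high, so its call is a description and not support for a change. The other 5 tested members, Per2, Cry2, Clock, Nr1d1 and Nr1d2, did not pass. Counted over all genes, 30.8% of the 8909 tested were called in this comparison, 17.1% higher and 13.7% lower. Among the 8 members detected on every array, 2 were called higher and 1 lower, so 37.5% were called, near the share of all genes. The median log2 difference of these 8 was 0.13, against -0.00156 over all tested genes.

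Among the period genes, which encode the inhibitory partners of the cryptochromes, Per1 had signals of 317 and 373 in control cells, 292 and 260.3 in unstimulated cells and 204 and 237 in stimulated cells. The 3 groups did not overlap, and control cells were highest. On the normalized log2 scale the means were 8.05 ± 0.0056 (SD, n = 2) in control, 7.63 ± 0.060 in unstimulated and 7.35 ± 0.094 in stimulated cells. From control to unstimulated cells Per1 fell by 0.42 ± 0.14 on the log2 scale, which is 1.34-fold lower (limma adjusted p = 0.0491). This call lay at the threshold: it was made in 2 of 17 alternative settings, with adjusted p from 0.0308 to 0.203, and was lost on leaving out any 1 of the 6 arrays (0.0534 to 0.181). A further detected Per1 probe had signals of 184.5 and 214 in control, 147.5 and 172.5 in unstimulated and 172 and 159.5 in stimulated cells, and differed by -0.54 ± 0.22 between unstimulated and control cells (adjusted p over probes = 0.0976). Both Per1 probes thus had estimates below 0 in this comparison, and over probes, of which 26.4% were called, neither passed (adjusted p = 0.0660 for the first).

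Per2 had signals of 189.6 and 305 in control cells, 283 and 312.5 in unstimulated cells and 183.5 and 207 in stimulated cells. The control replicates lay so far apart that the control range overlapped both of the other groups. The difference between unstimulated and control cells was 0.41 ± 0.22 (adjusted p = 0.192), with a 95% interval from -0.09 to 0.92. Without control replicate 2, the brighter of that pair, it was 0.75 (adjusted p = 0.0340), a call that no other of the 17 alternatives made. The other detected Per2 probe gave 0.34 ± 0.19.

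Per3 had signals of 87.2 and 96.0 in control cells, 120.1 and 114 in unstimulated cells and 89.9 and 92.8 in stimulated cells. The unstimulated arrays were the highest, with detection p-values of 0.00641 and 0.00962, just inside the limit, while those of the other 4 arrays ran from 0.142 to 0.387. The log2 means were 5.51 ± 0.025 (SD, n = 2) in unstimulated and 4.73 ± 0.12 in control cells, and the fitted difference was 0.78 ± 0.14 (limma adjusted p = 0.00452), a value conditioned on the filter that this group alone met. No fold is given, since control cells had no detected signal and the bound on the fold was under 1. The fitted size depends on how the background is removed: it was 0.35 without background correction and with the authors' log2 values, and the call was lost with a trended, robust empirical Bayes step (adjusted p = 0.0676). The other Per3 probe was detected on 0 arrays.

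Of the cryptochromes, the partners of the PER proteins in the inhibitory complex, Cry1 was measured by 1 probe, whose signals ran from 69.8 to 78.2 with detection p-values from 0.719 to 0.946 on the 6 arrays. Cry1 was therefore below detection in all 3 groups. Cry2 had signals of 122 and 188 in control cells, 175 and 148 in unstimulated cells and 149 and 154 in stimulated cells. The control pair enclosed the other 4 arrays, and the difference between unstimulated and control cells was 0.21 ± 0.26 (adjusted p = 0.587). Without control replicate 2 it was 0.67 (adjusted p = 0.0446), and without control replicate 1 it was below 0.

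Clock, which encodes the activating subunit named after it, had signals of 1481 and 2752 in control cells, 1145 and 1474 in unstimulated cells and 1243 and 1485 in stimulated cells. Control replicate 2 stood apart from the other 5 arrays, which lay between 1145 and 1485. The difference between unstimulated and control cells was -0.64 ± 0.24 with a 95% interval from -1.17 to -0.10 (limma adjusted p = 0.0731), so it was not called. It was called in 8 of the 17 alternatives, among them no background correction (adjusted p = 0.00909), and the estimate ran from -0.97 without control replicate 1 (adjusted p = 0.0277) to -0.30 without control replicate 2. A fainter Clock probe, detected on 3 arrays, gave -0.57 ± 0.22 (adjusted p over probes = 0.0873). These were both control arrays and stimulated replicate 2, while neither unstimulated array detected it (detection p-values 0.0823 and 0.0289). It met the filter through the control arrays, where it is high, so its value is a description.

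The REV-ERB genes Nr1d1 and Nr1d2, which encode the repressors of Arntl, had the smallest ranges of group means among the tested members. Nr1d1 had signals of 145 and 160.0 in control cells, 143 and 160.2 in unstimulated cells and 131 and 152 in stimulated cells, and its unstimulated and control values differed by -0.03 ± 0.19 (95% interval -0.45 to 0.39). Nr1d2 had signals of 380.5 and 503 in control cells, 456 and 459 in unstimulated cells and 348 and 448.5 in stimulated cells, with a difference of 0.06 ± 0.16 (95% interval -0.29 to 0.42). Unstimulated and control values overlapped for both genes, and the intervals leave room for differences of about the size called for Per1. A fainter Nr1d2 probe gave 0.37 ± 0.19 for the same comparison and 0.56 ± 0.19 for stimulated against control cells (adjusted p over probes = 0.0610).

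Dbp, a D-box activator whose mRNA is an output of CLOCK and BMAL1, had signals of 492 and 547 in control cells, 728 and 967 in unstimulated cells and 689 and 684 in stimulated cells. Every starved array was brighter than both control arrays. Dbp rose 1.70-fold from control to unstimulated cells (log2 difference 0.76 ± 0.20, 95% interval 0.31 to 1.22, limma adjusted p = 0.0212). Its call depended on single arrays, since it was lost on omitting unstimulated replicate 2 (0.48, adjusted p = 0.132), control replicate 1 (0.81, adjusted p = 0.0635) or control replicate 2 (0.70, adjusted p = 0.0915), and also with no detection filter (adjusted p = 0.0522). Only 1 probe measured it.

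Bhlhe40, which encodes the E-box repressor DEC1, made the largest change of the 9 tested members. Its signals were 1072 and 1081 in control cells, 2062 and 2561 in unstimulated cells and 1816 and 2670.4 in stimulated cells. The control replicates were close to each other and below all 4 starved arrays. Bhlhe40 rose 2.25-fold from control to unstimulated cells (log2 difference 1.17 ± 0.20, 95% interval 0.73 to 1.62, limma adjusted p = 0.00309), and its absolute difference ranked 378 among the 8909 genes. The call held in all 17 alternatives, with estimates from 0.97 to 1.38. Only 1 probe measured it.

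**Figure D2:**
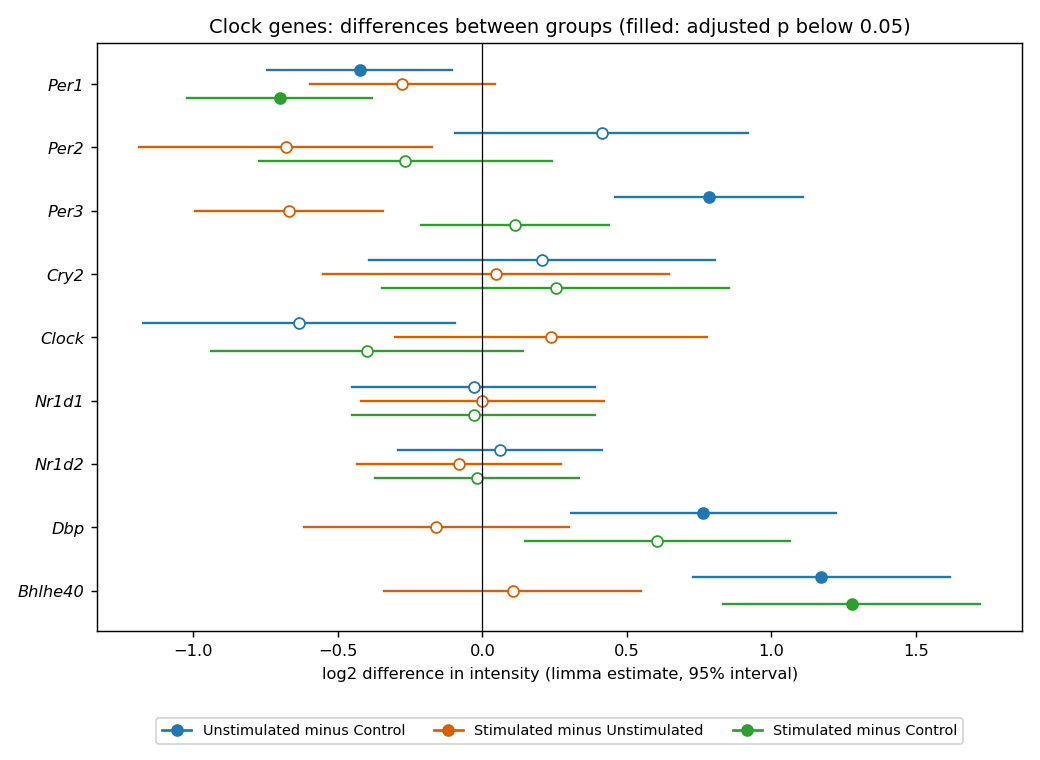
Fitted log2 differences in intensity (horizontal axis, limma, with 95% intervals) of the 9 tested clock genes in the 3 comparisons, filled where the adjusted p is below 0.05. Filled points appear for Per1, Per3, Dbp and Bhlhe40 in unstimulated minus control, for Per1 and Bhlhe40 in stimulated minus control, and for none in stimulated minus unstimulated; Per3 was not detected in control or stimulated cells.

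The second comparison, stimulated against unstimulated cells, asked what S100A8/A9 added to starved cells. In it 0 of the 9 tested clock genes were called by limma, as were 0.0786% of the 8909 genes. At an unadjusted p below 0.05 there were 2 members, both with lower values after S100A8/A9, beside 730 of the 8909 genes (8.19%). These were Per2, at -0.68 ± 0.22 (95% interval -1.19 to -0.17, adjusted p = 0.460), and Per3, at -0.67 ± 0.14 (adjusted p = 0.178). For Per2 both stimulated arrays were dimmer than both unstimulated arrays, and the second detected Per2 probe gave -0.52 ± 0.19 (adjusted p over probes = 0.543; 0.0565% of probes were called). For Per3 the stimulated arrays were below detection, and it had entered the test through the unstimulated arrays alone. Over the alternatives the Per2 estimate ran from -0.83 to -0.48 and was called in none of them.

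The remaining estimates were smaller. Per1 was at -0.28 ± 0.14 on the probe that stands for it (95% interval -0.60 to 0.04) and at 0.29 ± 0.22 on its other detected probe, so the sign differed between probes. Clock was at 0.24 (95% interval -0.30 to 0.78), Dbp at -0.16 (-0.62 to 0.30), Bhlhe40 at 0.10 (-0.34 to 0.55), Nr1d2 at -0.08 (-0.43 to 0.27), Cry2 at 0.05 (-0.55 to 0.65) and Nr1d1 at 0.00 (-0.42 to 0.42). The width of these intervals limits what 2 arrays per group could detect. The median of the 8 members detected on every array was -0.04, against -0.00767 over all genes.

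The third comparison set stimulated against control cells, which differ in both serum and S100A8/A9, and all 3 comparisons share arrays. Bhlhe40 rose and Per1 fell, and the other 7 tested members did not pass. Over all genes 29.1% were called, 15.9% higher and 13.2% lower, and the higher share of calls was 54.7%, against 42.6% with median scaling. Of the 8 members detected on every array, 1 was called in each direction, or 25%. Bhlhe40 was 2.42-fold higher (log2 difference 1.28 ± 0.20, limma adjusted p = 0.00212), with the call held in all 17 alternatives (1.09 to 1.47). Per1 was 1.63-fold lower (-0.70 ± 0.14, 95% interval -1.02 to -0.38, limma adjusted p = 0.00694), again in all 17 alternatives (adjusted p up to 0.0373). The second Per1 probe gave -0.25 ± 0.22 (adjusted p over probes = 0.425; 25.1% of probes were called).

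Dbp stood at 0.61 ± 0.20 against control (95% interval 0.15 to 1.06, limma adjusted p = 0.0515), just short of a call, and was called in 9 of 17 alternatives, 2 of which left out an unstimulated array (adjusted p = 0.0280 without replicate 1 and 0.0294 without replicate 2). Clock was at -0.40 (adjusted p = 0.238), Per2 at -0.27 (0.403), Cry2 at 0.25 (0.507), Per3 at 0.11 (0.589), Nr1d1 at -0.03 (0.926) and Nr1d2 at -0.02 (0.942). Cry2 passed without control replicate 2 (0.71, adjusted p = 0.0380). The median of the 8 members was -0.02, against -0.00881 over all genes.

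**Figure D3:**
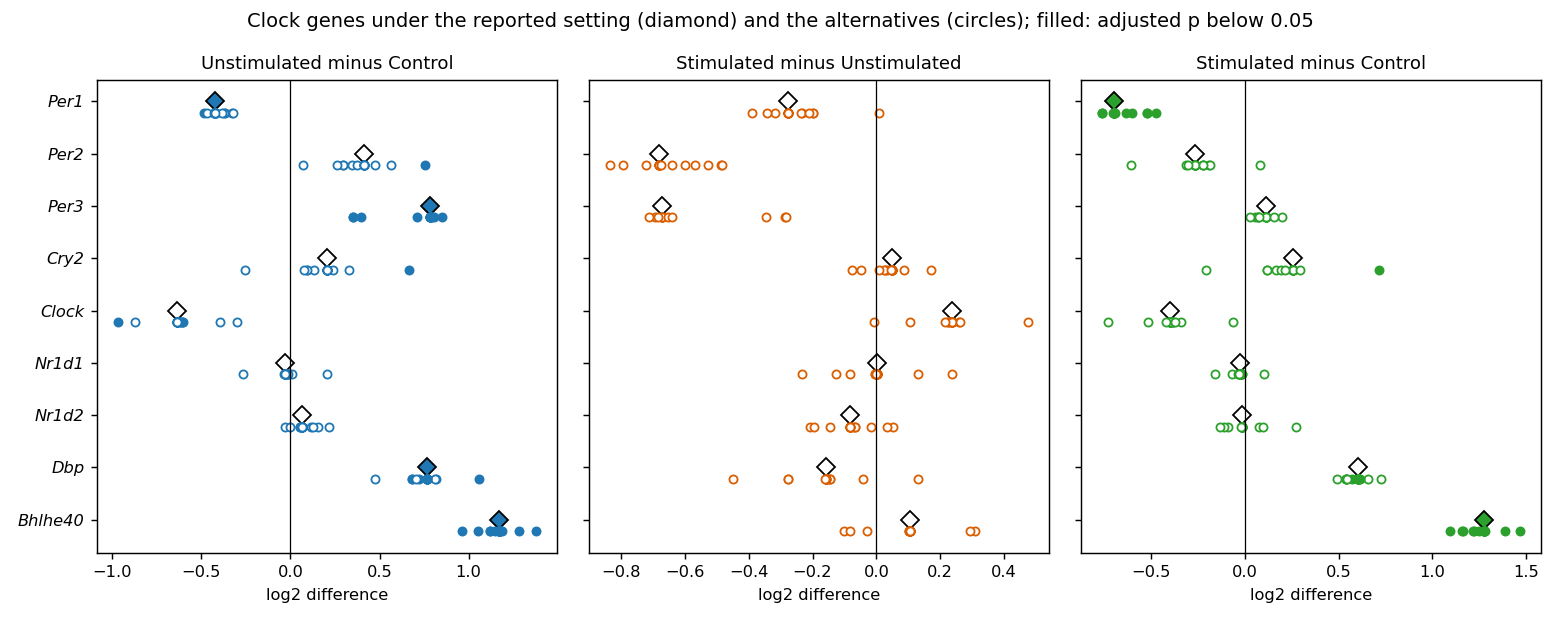
Log2 differences of the 9 tested clock genes (horizontal axes, 1 panel per comparison) under the reported setting (diamonds) and under up to 17 alternative settings, including the omission of each array (circles), filled where the adjusted p is below 0.05. Bhlhe40 stays filled in both comparisons with control cells, Per1 stays filled between stimulated and control cells, while Per1, Clock and Dbp cross the threshold between unstimulated and control cells.

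The remaining genes of the core loop were taken from a list of 11, of which 9 had a probe and 5 were tested. From control to unstimulated cells, Ciart and Arntl rose and Tef fell, against 0 called in stimulated minus unstimulated cells, and Ciart and Arntl were higher in stimulated than in control cells. The shares of all genes called in these comparisons were 30.8%, 0.0786% and 29.1%. The median of the 5 was 0.32, 0.10 and 0.36 in the 3 comparisons in the order given above. Npas2, Bhlhe41, Rora and Hlf had probes that missed the detection filter. Nfil3 was not analysed here.

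Ciart, whose product represses CLOCK and BMAL1, had signals of 559 and 684 in control cells, 1160.5 and 1015 in unstimulated cells and 793 and 855 in stimulated cells. The groups did not overlap, with unstimulated cells highest. Ciart rose 1.86-fold from control to unstimulated cells (0.90 ± 0.14, limma adjusted p = 0.00223), and its 2 other detected probes gave 0.95 and 0.75. In stimulated cells it was 0.61 above control (adjusted p = 0.0120), a call lost without control replicate 1 (adjusted p = 0.0583) or stimulated replicate 1 (0.0564) and with median scaling (0.0617), and -0.29 from unstimulated cells (adjusted p = 0.648).

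Arntl, which encodes the CLOCK partner BMAL1, had signals of 667 and 802 in control cells, 906 and 1063 in unstimulated cells and 1125 and 1304 in stimulated cells. The groups did not overlap, and stimulated cells were highest. Arntl was 1.95-fold higher in stimulated than in control cells (0.96 ± 0.16, limma adjusted p = 0.00306, called in all 17 alternatives). Its difference of 0.48 ± 0.16 between unstimulated and control cells lay at the threshold (adjusted p = 0.0498) and was called in 7 of 17 alternatives. That call was lost on leaving out either control replicate, unstimulated replicate 2 or either stimulated replicate (adjusted p from 0.0568 to 0.274). The same estimate of 0.48 ± 0.16 separated stimulated from unstimulated cells and was not called (adjusted p = 0.467).

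Tef, a D-box activator related to Dbp, had signals of 266.5 and 312 in control cells, 246 and 194 in unstimulated cells and 222 and 231.5 in stimulated cells. Control cells were highest, and Tef fell by 0.58 ± 0.16 on the log2 scale from control to unstimulated cells (limma adjusted p = 0.0259), the opposite direction to Dbp. That call was lost in 5 of 17 alternatives, including the omission of either control replicate or of unstimulated replicate 2 (adjusted p from 0.0894 to 0.161), and stimulated cells did not pass against control (-0.31, adjusted p = 0.175). Arntl2, a BMAL1 relative, was at 0.32 (adjusted p = 0.105) and Rorb, a receptor for ROR elements, at -0.19 (adjusted p = 0.501) between unstimulated and control cells.

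Genes that modify clock proteins came from a list of 22, of which 19 had a probe and 15 were tested. Of these, 2 were called higher and 4 lower in unstimulated than in control cells, with a list median of -0.03, 1 higher and 5 lower in stimulated than in control cells, with a median of -0.26, and 0 between stimulated and unstimulated cells. Over all genes 30.8%, 29.1% and 0.0786% were called in these comparisons, so 6 of 15 is not far from the overall share. Nono, a PER-associated RNA-binding protein gene, fell by 0.71 ± 0.16 from control to unstimulated cells (limma adjusted p = 0.0108). Timeless and Tipin, whose products form a replication fork complex, fell by 0.56 ± 0.15 and 0.57 ± 0.15 (adjusted p = 0.0228 for each), and 2 other Tipin probes gave -1.61 and -0.72. Gsk3b, a kinase gene, rose by 0.67 ± 0.15 on one probe (adjusted p = 0.0117) and was at -0.22 on the other, so its direction differed between probes. Leaving out 1 array ended the call of Nono (without control or unstimulated replicate 2, adjusted p up to 0.0761), of Gsk3b (the same 2 arrays, up to 0.0842), of Tipin (any control or unstimulated array, up to 0.103) and of Timeless (control replicate 1 or either unstimulated replicate, up to 0.126). Named after their values were seen, the other called modifiers were Kdm5a, Wdr5 and Csnk1e. Wdr5 was lower in both comparisons with control (-0.45 and -0.46), and Csnk1e was lower in stimulated than in control cells (-0.50, limma adjusted p = 0.0466). Over probes, of which 25.1% were called, that Csnk1e probe did not pass (adjusted p = 0.0614). Its other detected probe gave -0.27 (adjusted p over probes = 0.241). Kdm5a, counted as higher in both comparisons with control, was detected on 0 control arrays. It entered the test only through starved arrays, where it is high, so its calls support nothing.

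Of 8 listed clock outputs, 4 were tested and 1 was called lower in both comparisons with control, where 30.8% and 29.1% of all genes were called. This was Wee1, whose kinase restrains entry into mitosis. Its signals were 163 and 150.1 in control cells, 113.5 and 109.6 in unstimulated cells and 108 and 102 in stimulated cells. Wee1 was detected on the control arrays alone and entered the test through them, so its calls are a description (limma adjusted p = 0.00453 and 0.00439). On the background-corrected scale it was at least 1.91-fold and at least 1.76-fold lower in unstimulated and stimulated cells, but without background correction the log2 difference was -0.49 in both, so the size depends on that step. Alas1, the first enzyme of heme synthesis, was at 0.40 (adjusted p = 0.140), Cdkn1a, the p21 gene, at 0.26 (0.246) and Nampt, of NAD synthesis, at 0.16 (0.413) between unstimulated and control cells. A bound of this kind, which holds for the background-corrected scale only, sets the mean of the brighter group against that of the dimmer group, in which each array counts as its faintest detected probe wherever the gene itself was fainter.

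Input pathways to the clock were read from a CREB and SRF list and a glucocorticoid list. Of 8 tested CREB and SRF genes, of 12 listed, 1 was higher and 1 lower in unstimulated than in control cells, and 3 were higher in stimulated than in control cells, beside 30.8% and 29.1% of all genes. Fos, an immediate early gene, rose by 1.21 ± 0.21 (limma adjusted p = 0.00342) and stood 1.15 above control in stimulated cells. Crtc2, a CREB coactivator gene, was not detected in unstimulated cells and was at least 1.85-fold lower there on the background-corrected scale (adjusted p = 0.0312), against a log2 difference of -0.58 without background correction. That call was lost without control replicate 1 or unstimulated replicate 1 (adjusted p = 0.175 and 0.191). Crem, which encodes a cAMP-responsive factor and was not detected in control cells, was at least 1.47-fold higher in stimulated cells on the background-corrected scale (adjusted p = 0.00618) and 0.45 higher in log2 without that correction. Crem was tested only because starved arrays, where it is high, met the filter, and Crtc2 met it through both control arrays and 1 stimulated array. Crtc1, named after its value was seen, was the third called gene of stimulated cells at 0.68 (adjusted p = 0.0473) on one probe and -0.05 on another. Creb1 was at -0.38 between unstimulated and control cells (adjusted p = 0.134).

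Of 6 tested glucocorticoid genes, of 7 listed, 2 rose and 1 fell from control to unstimulated cells, where 30.8% of all genes were called. Dusp1, a MAP kinase phosphatase gene, rose by 1.84 ± 0.14 (limma adjusted p = 7.66e-05) and stood 1.42 above control in stimulated cells. Tsc22d3, which encodes GILZ, rose by 0.98 ± 0.21 (adjusted p = 0.00871), with 0.93 and 0.86 on its other detected probes, and lost the call without unstimulated replicate 1 (0.0667). Fkbp5, a co-chaperone gene of the glucocorticoid receptor, fell by 0.91 ± 0.16 (adjusted p = 0.00422) and was at -0.59 in stimulated cells (adjusted p = 0.0261), the latter call being lost without either control replicate or stimulated replicate 2 (up to 0.131). The receptor gene Nr3c1 was at -0.34 (adjusted p = 0.271). In stimulated minus unstimulated cells 0 genes of the output and input lists were called, beside 0.0786% of all genes.

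**Figure D4:**
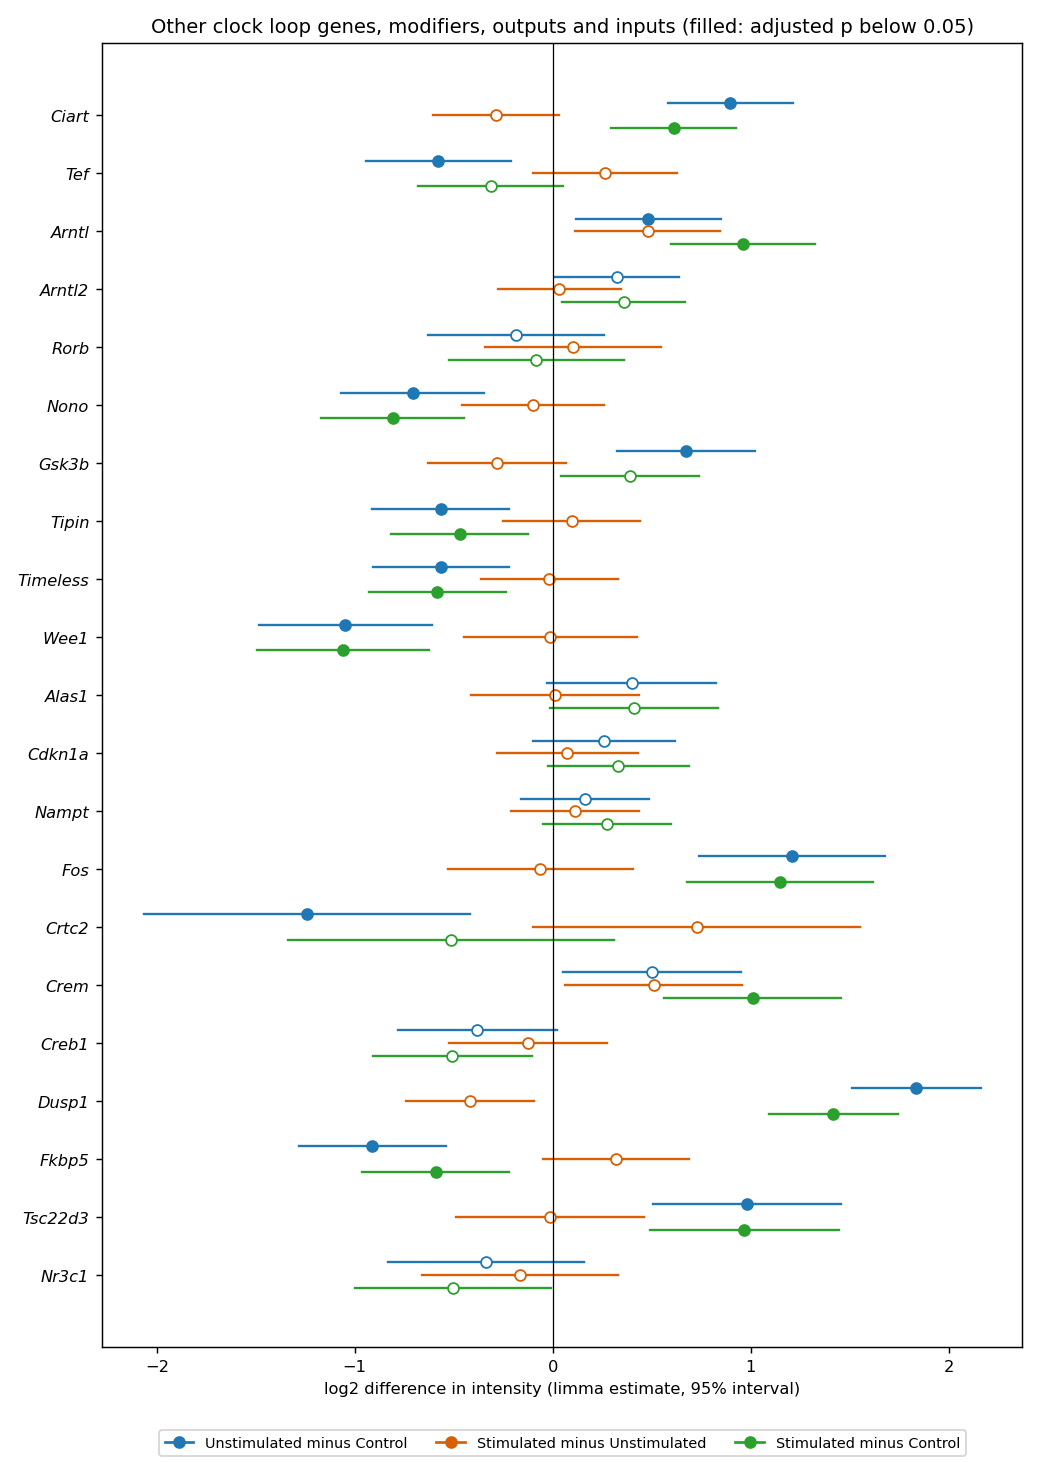
Fitted log2 differences in intensity (horizontal axis, limma, with 95% intervals) of the named genes of the other clock lists in the 3 comparisons, filled where the adjusted p is below 0.05. Ciart, Arntl, Fos, Dusp1 and Tsc22d3 lie above 0 and Nono, Timeless, Tipin, Wee1 and Fkbp5 below 0 in both comparisons with control cells; Wee1 was not detected in starved cells, Crtc2 not in unstimulated cells and Crem not in control cells.

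Genes whose pattern over the 6 arrays lay closest to a clock gene were found for the 4 members with the widest range of group means, by the root mean square difference of log2 intensities, each centred on its own mean. Closest to Bhlhe40, whose group means spanned 1.28, were Cyp1b1 (0.0915), Sp100 (0.0918) and Rnase4 (0.0930). Closest to Per3, with a span of 0.78, were Stk25 (0.101), Dlx3 (0.102) and Tmem254a (0.102). Per3 was detected on the 2 unstimulated arrays only, so its span and distances rest largely on values near background. Dbp, with a span of 0.76, lay closest to Gulp1 (0.0624), Edem1 (0.0816) and Tmtc2 (0.0860), and Per1, with a span of 0.70, to Ncaph (0.0535), Cda (0.0545) and Sgo2a (0.0587). These are distances over 6 arrays of 3 groups, given as a description.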

How the data were processed

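Single-colour Illumina bead array signals and detection p-values, so named in the file headers, were used as deposited. The intensities were on a linear scale, neither normalized nor background-subtracted by the authors as far as the values show. The detection p-values were taken to be against negative control beads, which the column headers do not state. The authors' deposited log2 values matched quantile-normalized log2 signals without background correction to within 0.00984. No label or header names the software that summarised the beads. Total RNA was purified with Trizol and a column kit, treated with DNase I and labelled as biotinylated cRNA, per the labels' protocols.

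In R 4.3.3 with limma 3.58.1, signals were corrected by normexp with negative controls inferred from detection p-values (offset 16), quantile-normalized and log2-transformed. Of 45281 probes, 34885 had 1 gene symbol, 18 several and 10378 none. Probes with detection p below 0.01 on at least 2 of 6 arrays were kept (14157 with 1 symbol, 8909 genes). The fit had 1 mean per group, 3 residual and 6.00 prior degrees of freedom, with Benjamini-Hochberg adjustment. It was tested on simulated data. The number of arrays limits the precision.

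Named were all members, every tested loop gene and up to 4 genes per other list with the smallest adjusted p between unstimulated and control cells. The members and lists were chosen with earlier results of these data known. Alternatives were 11 settings and the omission of each array. The deviations between same-numbered replicates had correlations across genes of -0.0213, -0.0400 and -0.00881. These values cannot show whether samples were paired by culture or day, which the labels do not give.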

Additional observations from a re-analysis of the deposited data

How the results depend on the processing

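Of the 9 tested clock genes, 4 were called between unstimulated and control cells (with Per3, which entered through the unstimulated arrays alone), 0 between stimulated and unstimulated cells and 2 between stimulated and control cells. Over 11 other settings these counts were 2 to 5, 0, and 2 to 3, and on leaving out 1 array 1 to 4, 0, and 2 to 3. The shares of all genes called were 30.8%, 0.0786% and 29.1%. Over the 11 other settings these shares were 10.4% to 35.9%, 0.0367% to 0.494% and 10.1% to 35.2%. With no detection filter 2 of 10 members were called in the first comparison, beside 10.4% of all genes. Omitting a control or an unstimulated array also lowered the share of all genes called in that comparison. The replicate block gave 4, 0 and 2, with Per1 lost between unstimulated and control cells (adjusted p = 0.0704) and Clock gained (0.0343). No called clock gene changed sign, in a comparison where it was called, under any alternative that gave it a value. Per3 had no value where it missed the detection filter, that is without either unstimulated array and with detection required on all 6 arrays.

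Counts over all genes ranged from 1366 to 3197, from 4 to 44 and from 1554 to 3140 in the 3 comparisons, against 2746, 7 and 2589. Median scaling in place of quantiles moved the median of all genes by -0.118, to -0.126, between stimulated and unstimulated cells and by -0.0973, to -0.106, between stimulated and control cells. Under it, 42.6% of calls between stimulated and control cells were higher, against 54.7%, and between stimulated and unstimulated cells 8 genes were higher and 7 lower, against 7 and 0. Counts of called modifiers ranged from 0 to 9 between unstimulated and control cells and from 1 to 6 between stimulated and control cells. The cause of these shifts was not tested. Signals of Per3 and Cry1 near background carry no measured level.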
